A study of Mus musculus with 2 samples.

Results

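Chemokines that act through CXCR2 draw neutrophils out of blood, and CXCL12 acting through CXCR4 holds them back in the bone marrow and in the lung circulation. The 7 genes described here cover both arms. Cxcl1, Cxcl2, Cxcl3 and Cxcl5 encode ligands of CXCR2, Cxcr2 encodes that receptor, and Cxcl12 and Cxcr4 encode the retention ligand and its receptor. They were chosen by gene symbol from the 32285 genes of the count files, and each symbol had 1 row. The comparison asked which lung cells carried the ligands, and at what level neutrophils carried both receptors, in NP-treated against saline-treated mice.

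The data were single-cell RNA sequencing of lungs from female BALB/cJ mice aged 12 weeks, each bearing a 4T1 tumor, a transplantable mouse mammary carcinoma. All mice received 100000 tumor cells and were studied at day 14. One group received intravenous saline and the other intravenous PLG nanoparticles (NPs), which are polymer particles without a drug, every 3 days from 1 day after inoculation. Each group was 1 library, prepared from the pooled lungs of 4 mice according to the sample labels, so mice could not be told apart, no test was possible and no p-value is given. Intervals are given at 95% and reflect only the counting of transcripts, not the spread between mice.

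The saline library held 91168129 unique molecular identifiers (UMIs, each counting 1 captured transcript) and the NP library 90081747. Selecting barcodes on detected genes (500 to 5000) and on mitochondrial UMIs (below 7.5%) left 8662 saline and 8333 NP cells, with medians of 6474.5 and 6008 UMIs. The libraries shared 21 of these barcodes. Clustering gave 33 clusters, made without the 7 genes, and 27 of them were named as 17 classes from marker genes. The other 6 held many markers of a second class and were left unnamed. Lung identity was visible in type 2 epithelium led by Sftpc and in alveolar macrophages led by Plet1 and Ear1. Neutrophils were 64.5% of saline cells and 37.0% of NP cells, while capillary endothelium was 3.00% and 11.3%. In this and every later comparison, a change in cell number and a change in RNA per cell cannot be told apart in totals over all cells, so levels are given within classes. A level is given in CPM, the UMIs of a gene per 1000000 UMIs of the class, and a ratio is the log2 of the NP level over the saline level.

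The 4 CXCR2 ligand genes lie on chromosome 5 within 147 kb, in the order Cxcl5, Cxcl3, Cxcl1 and Cxcl2. On GRCm38, Cxcl1 (ENSMUSG00000029380) spans chr5:90891241-90893115 and Cxcl2 (ENSMUSG00000058427) spans chr5:90903871-90905938, both on the plus strand. Cxcl12 (ENSMUSG00000061353) is at chr6:117168535-117181367. Both receptor genes are on chromosome 1, Cxcr2 (ENSMUSG00000026180) at chr1:74153989-74161246 and Cxcr4 (ENSMUSG00000045382) at chr1:128588199-128592293 on the minus strand. NF-κB, a transcription factor activated by tissue damage and inflammatory cytokines, is a textbook regulator of these ligands, and the upstream sequences of Cxcl1, Cxcl2 and Cxcl3, which held part of one of its motifs, are shown, since their levels are followed below. Promoter windows were matched for 6 of the 7 genes, all but Cxcl5. RefSeq sequence (GRCm38.p6) from 120 to 31 bases before the RefSeq transcription start is printed 5′ to 3′ on the plus strand. The letters GGAATTTCC, part of an NF-κB motif, are in capitals.

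Cxcl3, chr5:90785981-90786070: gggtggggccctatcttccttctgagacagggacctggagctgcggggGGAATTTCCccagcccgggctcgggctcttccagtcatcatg

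Cxcl1, chr5:90891125-90891214: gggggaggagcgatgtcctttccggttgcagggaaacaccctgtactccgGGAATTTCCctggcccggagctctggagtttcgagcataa

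Cxcl2, chr5:90903779-90903868: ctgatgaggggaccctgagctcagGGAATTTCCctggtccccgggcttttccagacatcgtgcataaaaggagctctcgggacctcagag

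The letters began 72 bases upstream of the RefSeq start in Cxcl3, 70 bases upstream in Cxcl1 and 96 bases upstream in Cxcl2. The gene spans given above came from another annotation, GENCODE, whose starts differ. Distances to those gene starts are therefore not the same, above all for Cxcl2. They were searched on both strands (as GGAAATTCC on the other) in windows of 300 bases around the start. They occurred in 104 of 32851 RefSeq promoter windows (0.317%), and not in the windows of Cxcr2, Cxcr4 or Cxcl12. The letters were chosen after the promoter sequences had been seen. The matches in Cxcl1, Cxcl2 and Cxcl3 were thus fixed beforehand, and the share is no measure of enrichment. A match is a run of letters and does not show that a factor was bound.

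Cxcl2, the ligand made in large amounts by activated myeloid cells, was mainly a neutrophil transcript in both libraries. Neutrophils held 75768 of 82608 saline Cxcl2 UMIs, or 91.7% (Clopper-Pearson interval 91.5% to 91.9%), and 74758 of 99261 NP Cxcl2 UMIs, or 75.3% (75.1% to 75.6%). With classes taken from the marker score of each cell in place of clusters, the shares were 66.9% and 48.6%. The number of Cxcl2 transcripts in neutrophils was thus almost the same, although there were 5586 saline and 3085 NP neutrophils. Their level was 1579 CPM in saline and 3104 CPM in NP neutrophils, a log2 ratio of 0.98 (0.96 to 0.99). The median neutrophil held 2 Cxcl2 UMIs in saline and 11 in NP. The top 10% of neutrophils began at 43 UMIs in saline and 69 in NP, so both the middle and the upper end of the distribution were higher in NP.

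To compare cells at equal depth, each was thinned to 1000 UMIs. At least 1 Cxcl2 UMI was then present in 42.0% of saline neutrophils (40.7% to 43.3%) and in 61.6% of NP neutrophils (59.9% to 63.3%), against 62.4% and 78.9% without thinning. Thinning left out 8 saline neutrophils and 1 NP neutrophil with fewer UMIs. In B cells, which are not a known source of Cxcl2, the thinned shares were 1.49% and 1.51%. Median depths were 6048 and 5228 UMIs in neutrophils and 4344 and 4446.5 UMIs in B cells.

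**Figure D1:**
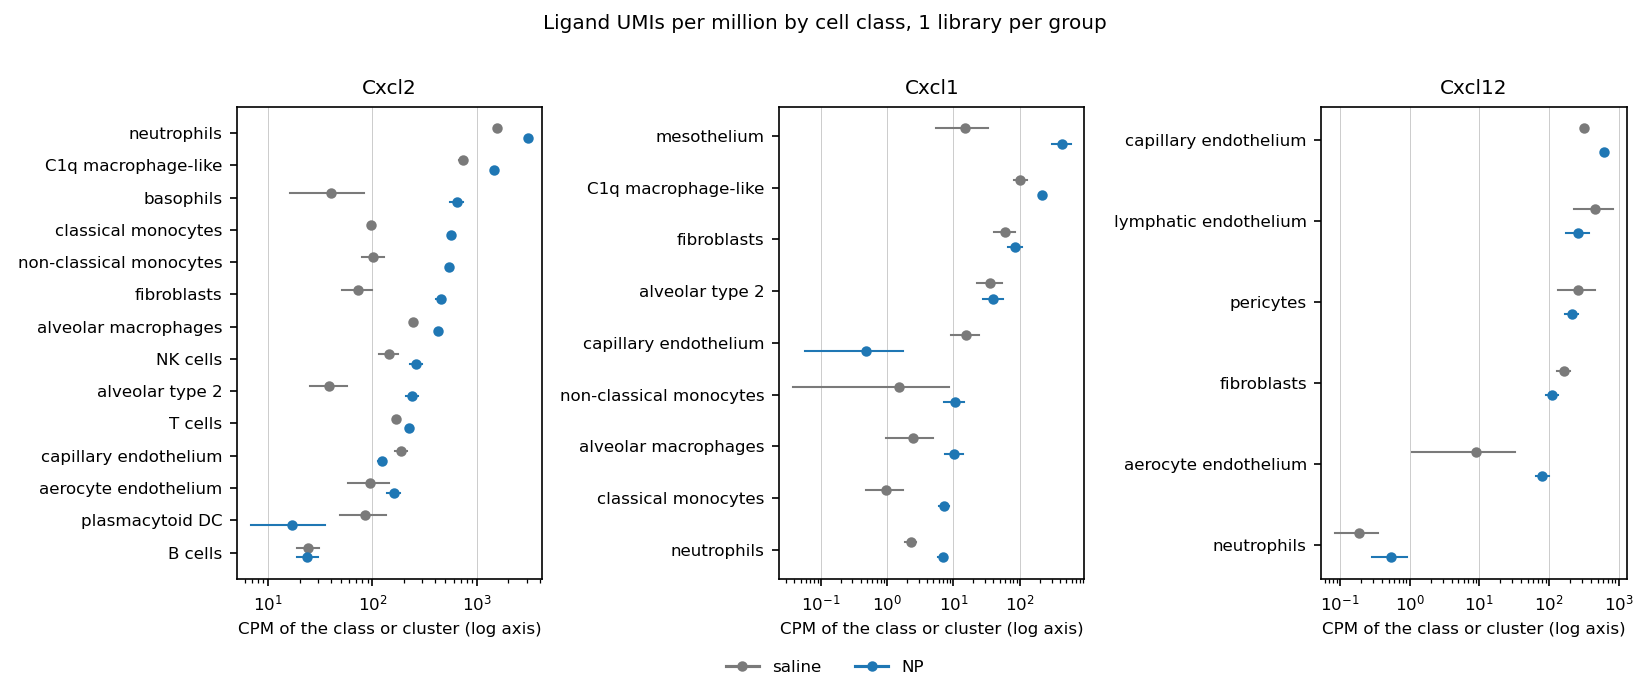
Levels of Cxcl2, Cxcl1 and Cxcl12 in CPM (log axis) in each named class with at least 20 UMIs of the gene over both libraries, saline in gray and NP in blue; bars are exact Poisson intervals. Cxcl2 was highest in neutrophils (1579 and 3104 CPM) and Cxcl12 in NP cells was highest in capillary endothelium (620 CPM), while the Cxcl1 value of NP mesothelium came from 1 cell.

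The higher Cxcl2 level was found in each of the 8 neutrophil clusters. The log2 ratios ran from 0.75 in cluster 2, with Isg15 and Acod1 among its leading genes, to 1.55 in cluster 7, led by the interferon-induced genes Cxcl10 and Rsad2. In cluster 7 the level was 1773 CPM in the 90 saline cells and 5193 CPM in the 754 NP cells. In cluster 8, the immature neutrophils led by the granule genes Ltf, Camp and Ngp, the level was 409 CPM and 822 CPM. Immature cells thus held the lower levels in both libraries, and the ratio there was 1.01 (0.95 to 1.07). The neutrophil class was spread differently over its clusters in the 2 libraries, with clusters 0 and 1 largest in saline and clusters 2 and 7 largest in NP. With the cluster shares of the saline library and the levels of the NP library, the log2 ratio was 0.89 in place of 0.98.

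Monocytes were the second source of Cxcl2 in the NP library. Classical monocytes, recruited cells marked by Ly6c2 and Ccr2, held 1104 UMIs in saline and 11263 in NP. That was 1.34% (1.26% to 1.42%) and 11.3% (11.2% to 11.5%) of all Cxcl2 UMIs. Their level was 96.2 CPM and 571 CPM, a ratio that was 2.57 (2.48 to 2.66) and was 1.76 when cells with 200 detected genes or more were admitted. The ratio was 2.26 in cluster 3, led by F13a1 and Vcan, and 2.98 in cluster 10, led by Aif1 and Cxcl9. Cluster 10 also held class II antigen presentation genes, and no classical monocyte marker, among its 10 leading genes. Its marker score was 4.07 for classical monocytes and 2.89 for non-classical monocytes, the second name. No cluster was named as conventional or mature dendritic cells, and whether cluster 10 held such cells was not tested. The ratio was lower in cluster 25, the cycling monocytes, than in cluster 10, at 2.41. Non-classical monocytes, the patrolling cells marked by Treml4, had 102 CPM and 548 CPM (2.43, 2.08 to 2.81). After thinning, 6.45% of saline and 22.1% of NP classical monocytes held a Cxcl2 UMI, so both the level and the share of positive cells were higher.

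Neutrophil RNA inside other cells was estimated with 8 neutrophil markers, all of which were detected in classical monocytes of both libraries. The estimate takes every marker UMI as RNA of an average neutrophil. Marker transcripts made by the other cells themselves would be counted with it. The markers made up 0.668% of UMIs in saline and 0.459% in NP classical monocytes. At the Cxcl2 level of neutrophils, that amount of neutrophil RNA would carry 34.3 CPM of Cxcl2 in saline and 44.2 CPM in NP classical monocytes. Subtracting it left 61.9 CPM and 527 CPM, a ratio of 3.09. Free RNA, estimated from barcodes under 50 UMIs, could be at most 0.389% and 0.311% of UMIs in these cells, which carries 3.58 CPM and 3.35 CPM of Cxcl2.

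Cells named as macrophages carried Cxcl2 in both libraries. The C1q macrophage-like cells, named from interstitial macrophage markers such as C1qa and led by Retnla, had 740 CPM in 58 saline cells and 1461 CPM in 81 NP cells (0.98, 0.85 to 1.12). Their marker score was 6.08 for interstitial macrophages and 3.90 for conventional dendritic cells, the second name, and Mgl2 and Ccl17 were among their leading genes. No cluster was named as conventional or mature dendritic cells, so such cells within this class cannot be told apart. This holds for its Cxcl1 as well. In the C1q macrophage-like cells neutrophil markers were 0.577% of saline and 1.59% of NP UMIs, and the Cxcl2 ratio after the same subtraction was 0.88. Alveolar macrophages had 247 CPM and 423 CPM (0.78, 0.65 to 0.90). In the structural classes a few cells held most Cxcl2. Fibroblasts had 72.6 CPM and 453 CPM (2.64), and their neutrophil markers were 6242 CPM and 13154 CPM, whose part in this difference was not tested. In capillary endothelium Cxcl2 was 188 CPM in saline and 124 CPM in NP, and 1 saline cell held 69.5% of the 220 saline UMIs. Without sub-clusters of that class led by neutrophil or fibroblast genes its Cxcl2 ratio was 0.35 (−0.53 to 1.33) in place of −0.61.

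Over all kept cells, the Cxcl2 level was 1062 CPM in saline and 1371 CPM in NP (0.37), and the ratio was −0.0035 when centred on the median gene. The total was split by replacing only the class shares of UMIs, or only the levels within classes, by those of the NP library. Shares alone gave −0.67, since the main source was a smaller part of the NP library, and levels alone gave 1.00. Both parts were larger than the total, and they had opposite signs.

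**Figure D2:**
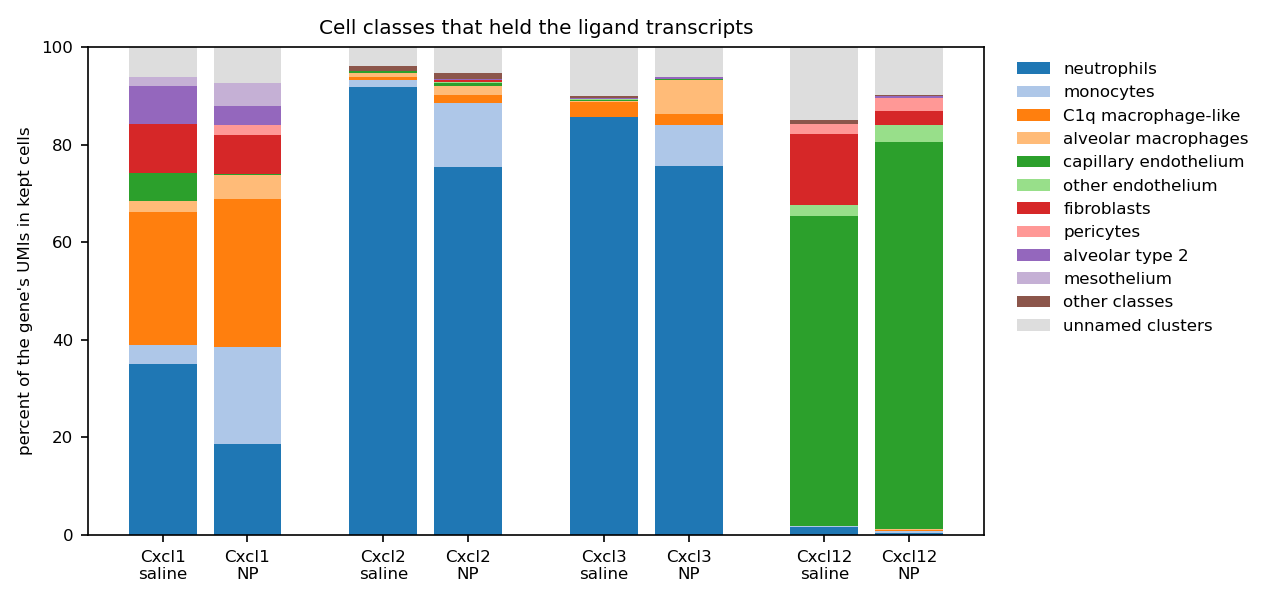
Share of each ligand's UMIs (percent of the gene's UMIs in kept cells) that lay in each cell class, one stacked bar per gene and library, with both monocyte classes joined and aerocyte and lymphatic cells joined as other endothelium. Neutrophils held 91.7% and 75.3% of Cxcl2 UMIs, and capillary endothelium held 63.5% and 79.3% of Cxcl12 UMIs.

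Cxcl1, a ligand classically made by macrophages and stroma, was a rare transcript with a wider set of sources. There were 311 Cxcl1 UMIs in kept saline cells and 883 in NP cells, or 4.00 CPM and 12.2 CPM (1.61, 1.42 to 1.80). Class shares alone gave 0.49 and levels alone gave 1.55. The C1q macrophage-like cells held 27.3% (22.5% to 32.6%) and 30.2% (27.2% to 33.4%) of them while being 0.670% and 0.972% of cells. Their level was 102 CPM and 219 CPM (1.10, 0.74 to 1.47). One cell held 47.1% of their saline UMIs and one held 29.6% of their NP UMIs. Neutrophils had a much lower level, 2.27 CPM and 6.85 CPM (1.59, 1.23 to 1.96), and their share of all Cxcl1 UMIs was 35.0% (29.7% to 40.6%) and 18.7% (16.2% to 21.4%).

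Within neutrophils, Cxcl1 differed most in cluster 6, led by Ccrl2, Csf1 and Ptgs2. There it was 7.65 CPM in saline and 60.8 CPM in NP (2.99, 2.20 to 3.86), and 1 cell each gave 52.9% (saline) and 26.2% (NP) of these UMIs. Classical monocytes held 11 Cxcl1 UMIs in saline and 142 in NP, and their levels were 0.958 CPM and 7.20 CPM (2.91, 2.03 to 3.94). Of the NP monocyte UMIs, 120 lay in cluster 10, where the saline library had none; against a floor of 3 counts per library the NP level there was at least 12.9-fold higher. Of these 120 UMIs, 63.3% were in 4 of 441 cells. Fibroblasts (59.2 CPM and 85.5 CPM) and type 2 epithelium (35.6 CPM and 39.4 CPM) had ratios whose intervals included 0. All 41 NP UMIs of mesothelium were in 1 cell.

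Cxcl3 followed Cxcl2 in its main source. Neutrophils held 396 of 462 Cxcl3 UMIs in saline (85.7%) and 380 of 503 in NP (75.5%), with levels of 8.25 CPM and 15.8 CPM (0.93, 0.73 to 1.14). Over the neutrophil clusters the ratio was 1.67 (1.12 to 2.20) in cluster 0, 1.39 (0.78 to 2.01) in cluster 6 and 1.28 (0.71 to 1.89) in cluster 2. In the interferon cluster 7, where the Cxcl2 ratio was largest, it was −0.06 (−1.39 to 1.63) on 5 saline and 44 NP UMIs. In classical monocytes, Cxcl3 had 0 UMIs in saline, which allows up to 0.261 CPM, and 43 UMIs or 2.18 CPM in NP. The NP level was thus at least 8.34-fold higher, leaving out the counting error of the 43 UMIs, and 12 of 1177 NP cells held 93.0% of them. Of these 43 UMIs, 38 lay in cluster 3 and 5 in cluster 10, whereas cluster 10 held most of the monocyte Cxcl1. In alveolar macrophages, 35 UMIs in NP stood against 1 in saline, but 71.4% of the 35 were in 1 cell. Cxcl5, an epithelial and platelet ligand, was close to undetected, with 3 UMIs in saline and 9 in NP, of which 5 were in type 2 epithelium. No comparison was made at that depth.

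Cxcr2, the receptor that all 4 of these ligands share, was at nearly the same level in the neutrophils of both libraries. It was 902 CPM in saline and 967 CPM in NP (0.10, 0.08 to 0.12), and the median neutrophil held 7 UMIs in each. Thinned shares were 64.4% (63.1% to 65.6%) and 65.3% (63.6% to 67.0%), against 0.849% and 0.334% in B cells. Neutrophils held 92.7% and 88.1% of all Cxcr2 UMIs. Over all kept cells the level was 601 CPM in saline and 365 CPM in NP (−0.72). Class shares alone gave −0.71 and levels alone gave 0.06, so the lower total went with the smaller share of neutrophils.

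Cxcr2 varied more between neutrophil clusters than between libraries, with the cycling cluster 31 as the exception. It was 334 CPM and 317 CPM in the immature cluster 8, about 1000 CPM in cluster 1, and 1392 CPM and 1484 CPM in cluster 6. The order over the clusters was the same in both libraries at its low end, with the cycling cluster 31 below cluster 8 and cluster 8 below cluster 9. The ratio lay between −0.08 and 0.30 in 7 of the 8 clusters. In cluster 31, which had 18 saline and 17 NP cells, it was −1.43 (−1.93 to −0.96), with 184 CPM and 68.3 CPM. Outside neutrophils, basophils had 425 CPM in 21 saline cells and 204 CPM in 39 NP cells (−1.06), and their neutrophil markers were 1.97% and 0.425% of UMIs.

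**Figure D3:**
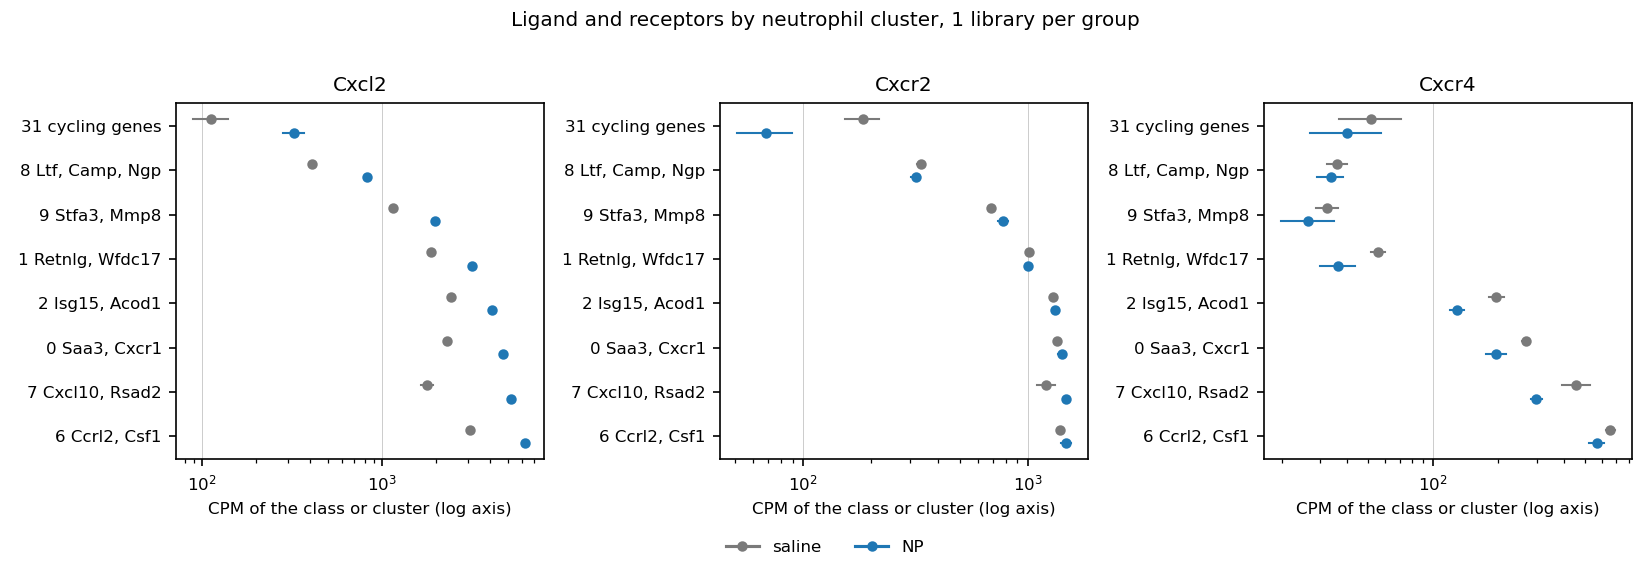
Cxcl2, Cxcr2 and Cxcr4 levels in CPM (log axis) in the 8 neutrophil clusters, named by leading genes and drawn with the 2 immature clusters on top, saline in gray and NP in blue, with exact Poisson intervals. NP points lie to the right for Cxcl2 and to the left for Cxcr4 in every cluster, and close to the saline points for Cxcr2 except in cluster 31.

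Cxcr4, the retention receptor, was 127 CPM in saline and 128 CPM in NP neutrophils, a ratio of 0.01 (−0.05 to 0.07), and the thinned shares were 16.4% (15.4% to 17.4%) and 17.2% (15.8% to 18.5%). Behind this equal pooled level lay a lower CPM in each of the 8 clusters. The ratio was −0.62 (−0.91 to −0.33) in cluster 1, −0.61 (−0.84 to −0.37) in cluster 7, −0.60 (−0.76 to −0.44) in cluster 2, −0.46 (−0.63 to −0.29) in cluster 0 and −0.21 (−0.35 to −0.07) in cluster 6. In clusters 8, 9 and 31 the intervals included 0. Shares of thinned cells were not lower in every cluster. In cluster 6, both receptors were seen in 30.9% of saline and 30.5% of NP cells. Cxcr4 without Cxcr2 was seen there in 10.4% and 13.4%. In cluster 8 the shares were 0.246% and 0.697% for both, and 1.72% and 4.18% for Cxcr4 without Cxcr2. Both kinds of share were lower in NP in clusters 0, 1, 2, 7 and 9. Cluster 31 had no such cell. Holding the saline cluster shares fixed, the levels alone gave −0.40. Holding the saline levels fixed, the cluster shares alone gave 0.50, because cluster 7, with 457 CPM of Cxcr4 in saline, was 90 of 5586 saline and 754 of 3085 NP neutrophils.

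The median gene of neutrophils was itself lower in NP, by a ratio of −0.13, and centred on it the pooled Cxcr4 ratio was 0.14. Without cluster 7, the uncentred Cxcr4 ratio of neutrophils was −0.33. The fixed-share value stayed negative under other cell filters and clusterings but varied in size, from −0.42 to −0.11.

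Cxcr4 was highest in cluster 6, with 657 CPM in saline and 567 CPM in NP, and lowest in cluster 9, with 32.4 CPM and 26.6 CPM. Both receptors were detected in the same thinned cell in 11.9% of neutrophils in each library. Cxcr4 without Cxcr2 was seen in 4.48% (3.95% to 5.06%) of saline and 5.22% (4.46% to 6.07%) of NP neutrophils.

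Neutrophils held 60.9% of saline and 30.7% of NP Cxcr4 UMIs, and most of the remainder was in other leukocytes. Capillary endothelium held 1.01% and 4.07%. B cells, which depend on CXCR4 for homing, had 326 CPM and 439 CPM (0.43, 0.31 to 0.55). Non-classical monocytes had 327 CPM and 362 CPM (0.15, −0.07 to 0.36). T cells had 163 CPM and 208 CPM (0.36, 0.19 to 0.52). Classical monocytes were at 97.5 CPM and 94.7 CPM, and NK cells at 268 CPM and 264 CPM, with intervals that included 0.

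Cxcl12, the ligand of CXCR4 made by endothelium and stroma, was the member with the largest difference over all kept cells. It was 583 UMIs and 7.49 CPM in saline, and 3266 UMIs and 45.1 CPM in NP (2.59, 2.46 to 2.72). Shares of the classes alone gave 1.74 and levels alone gave 0.86. Capillary endothelium held 63.5% (59.4% to 67.4%) of the UMIs in saline and 79.3% (77.9% to 80.7%) in NP, while its part of all cells was 3.00% and 11.3%. Unnamed clusters 12 and 16, which scored highest for the same class, held 4.12% and 8.06% of saline UMIs and 4.23% and 4.19% of NP UMIs.

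Within capillary endothelium Cxcl12 was 316 CPM in 260 saline cells and 620 CPM in 944 NP cells, a ratio of 0.97 (0.81 to 1.13). Thinned shares with a UMI were 23.0% (18.0% to 28.6%) and 32.7% (29.7% to 35.8%), while 0 of 471 and 0 of 598 thinned B cells had one, which by a limit of 3 counts allows shares of cells with a UMI of up to 0.637% and 0.502%. Other endothelial genes went both ways in the same cells, with ratios of −0.03 for Gpihbp1, −0.21 for Plvap, −0.33 for Sox17, −0.40 for Vwf, 0.46 for Gja4 and 1.84 for Vcam1. Neutrophil markers were 1.15% of UMIs in saline and 0.351% in NP capillary endothelium. The heat shock genes Hspa1a and Hspa1b, which respond to tissue dissociation, had ratios of 1.21 and 1.56 there. They were 2 of 10 dissociation genes past 2-fold higher, and none was past 2-fold lower. Among genes of the class with at least 20 UMIs, 2.82% were higher and 2.15% lower by that much. Of the 10, 3 were higher at all, and the median was −0.19. The part of these heat shock genes in the Cxcl12 difference was not tested.

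The class was divided again into 8 sub-clusters. Cxcl12 was highest in sub-cluster 5, led by Atp13a3 and Esm1 with the artery gene Gja5 also among its leading genes, at 1565 CPM in 13 saline cells and 2711 CPM in 50 NP cells (0.79, 0.49 to 1.11). In sub-cluster 3 it was 331 CPM in 26 saline cells and 1142 CPM in 109 NP cells (1.79, 1.35 to 2.26). Sub-cluster 1, led by the interferon-induced genes Cxcl10 and Iigp1, had 149 CPM and 295 CPM (0.98, 0.52 to 1.48). Sub-cluster 2 went the other way, with 852 CPM in 32 saline cells and 607 CPM in 117 NP cells (−0.49, −0.89 to −0.08). With the saline shares of the sub-clusters held fixed, levels alone gave a ratio of 0.90. Sub-cluster 7, 7 saline and 17 NP cells, was led by Cxcl2, Il1b and other neutrophil genes. Sub-cluster 4, 20 saline and 59 NP cells, was led by fibroblast genes such as Inmt, Mfap4 and Tcf21, and had 130 CPM and 394 CPM. Without sub-clusters 4 and 7 the ratio of the class was 0.78 (0.61 to 0.94).

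**Figure D4:**
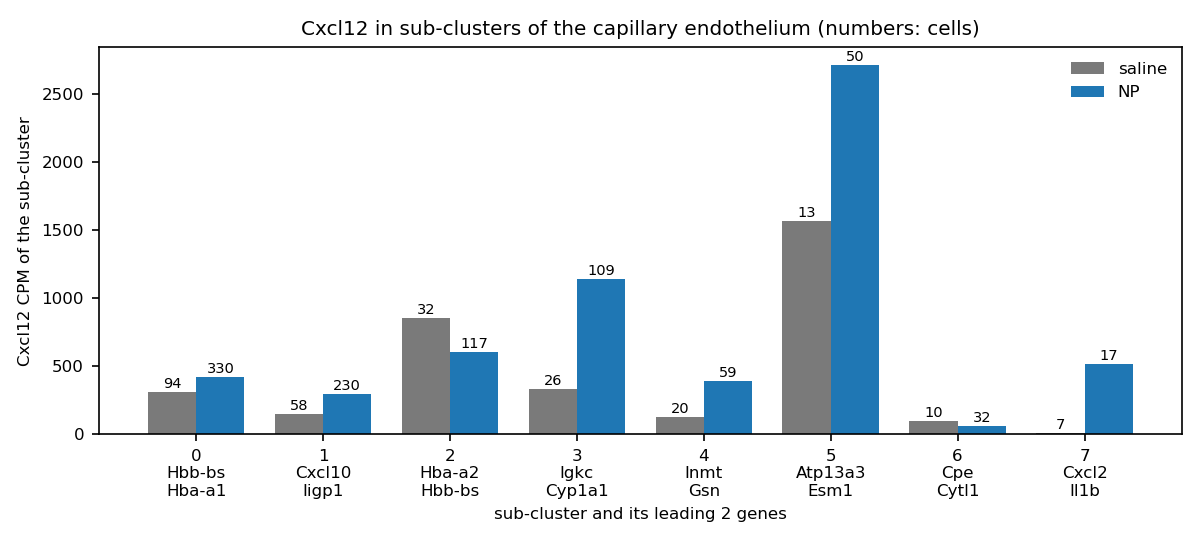
Cxcl12 level in CPM in the 8 sub-clusters of capillary endothelium, each named by its first 2 leading genes, saline in gray and NP in blue, with the number of cells above each bar. NP bars are higher in sub-clusters 0, 1, 3, 4, 5 and 7 and lower in sub-clusters 2 and 6 (sub-cluster 4 was led by fibroblast genes and sub-cluster 7 by neutrophil genes), with the highest level, 2711 CPM, in NP cells of sub-cluster 5.

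Other sources of Cxcl12 went both ways. Fibroblasts had 162 CPM in 93 saline cells and 111 CPM in 138 NP cells (−0.55, −0.99 to −0.10). Lymphatic endothelium (463 CPM and 263 CPM) and pericytes (261 CPM and 212 CPM) had few saline cells, 6 and 9, and intervals that included 0. Aerocytes, the gas-exchange capillary cells, had 2 UMIs in saline and 89 in NP, or 8.93 CPM and 80.7 CPM (3.18 by these counts, 1.28 to 6.24).

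**Figure D5:**
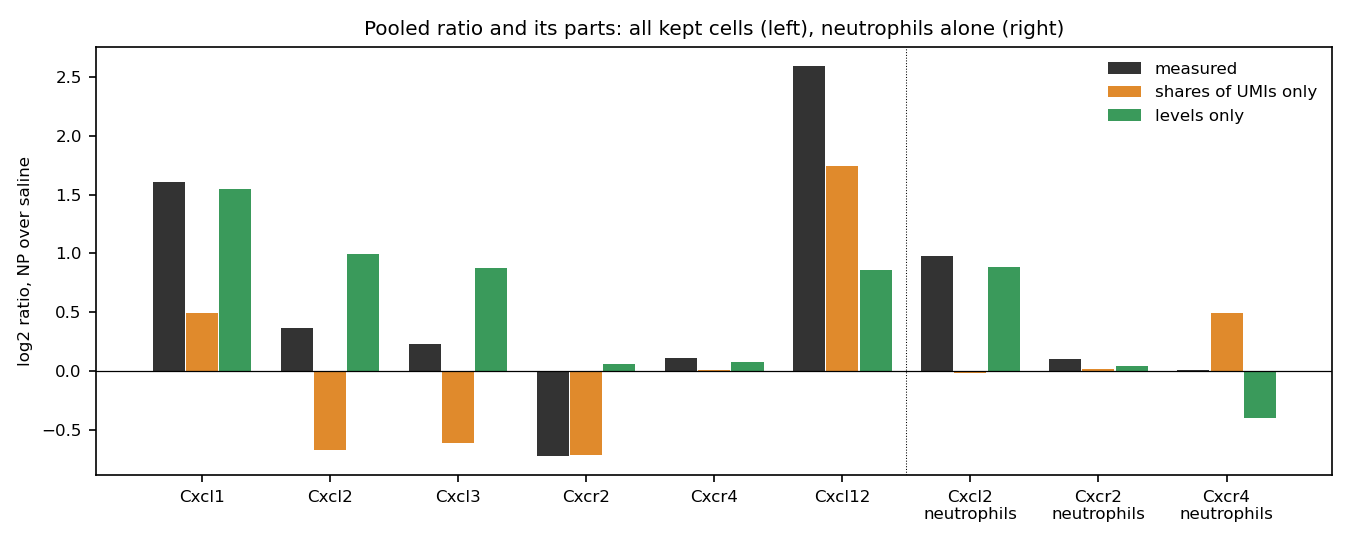
Log2 ratio of NP over saline for the pooled level (black), for a change of the UMI shares of the classes or clusters alone (orange) and for a change of the levels within them alone (green), over all kept cells on the left and over neutrophils on the right. The Cxcl2 parts of −0.67 and 1.00 have opposite signs, the Cxcr2 total of −0.72 goes with shares, and Cxcr4 in neutrophils is near 0 with parts of 0.50 and −0.40.

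Against the background of all genes, the members stood as follows. In neutrophils, 2 of the 6 members with at least 20 UMIs were past 2-fold higher (Cxcl1 and Cxcl12, the latter with 9 and 13 UMIs) and none was past 2-fold lower, when 4.08% of 11098 genes were higher by that much and 3.27% were lower. In classical and non-classical monocytes together, 3 of 5 (Cxcl1, Cxcl2 and Cxcl3) were past 2-fold higher and none lower, against 3.99% and 1.56% of 11554 genes. Cxcl3 had no saline UMI and Cxcl1 had 12, so they reached 20 UMIs only through the library where they were higher; with at least 200 UMIs, 1 of 3 members (Cxcl2) was past 2-fold. In capillary endothelium none of 5 was past 2-fold higher, against 2.82% of genes, and 2 (Cxcl1 and Cxcr2) were lower, against 2.15%. Of the 18 saline Cxcl1 UMIs in capillary endothelium, 88.9% came from 1 cell, and NP cells had 2. Of its 111 saline Cxcr2 UMIs, 55.0% were in 3 of 260 cells. Neutrophil markers were 1.15% of saline and 0.351% of NP UMIs in this class, and their part in the lower Cxcr2 was not tested. Cxcl2 and Cxcl3 in neutrophils and Cxcl12 in capillary endothelium were just short of 2-fold. In the C1q macrophage-like cells 1 of 5 was higher (Cxcl1) and 1 lower (Cxcr2), against 3.99% and 2.91% of genes. In fibroblasts 1 of 5 was higher (Cxcl2) and none lower, against 4.37% and 3.89%.

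A list of 43 genes around the axis (other ligands, scavengers, other chemoattractant receptors, inducers, feedback genes, receptor signalling and adhesion) was read in the same way. In neutrophils, 6 of the 35 with at least 20 UMIs were past 2-fold higher and none lower, when 4.08% of genes at that depth were higher and 3.27% lower. The list median was 0.09, when the median of genes with 20 UMIs was −0.13. With at least 200 UMIs, 3 of 30 were past 2-fold higher and none lower, when 1.79% of genes at that depth were higher and 0.607% lower, and these 3 were inhibitors of NF-κB and an adhesion molecule. Nfkbia, which encodes the inhibitor IκBα, was 361 CPM in saline and 847 CPM in NP (1.23). Within clusters its ratio was between 0.74 and 1.00 in 7 of the 8 and negative in the cycling cluster 31. Tnfaip3, which encodes the feedback enzyme A20, was 15.2 CPM and 38.9 CPM (1.35, 1.21 to 1.49), and its cluster ratios ran from −1.03 in cluster 31, on 6 and 3 UMIs, to 1.40 in cluster 8. Icam1, the endothelial and leukocyte adhesion molecule, was 5.71 CPM and 18.8 CPM (1.72). Within each cluster that had UMIs its ratio was lower than this, from 0.03 to 1.70, and the interval excluded 0 only in clusters 2 and 6. The value of 0.03 was that of cluster 9, on 13 saline and 2 NP UMIs. It was positive only because the NP count was set to the floor of 3, and the CPM as counted was lower in NP there. The pooled Nfkbia and Icam1 ratios thus also held the different cluster shares of the libraries. All 3 are textbook NF-κB target genes. NF-κB activity was not measured, and its part in these ratios or in those of the ligands was not tested.

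Of the 5 inducers of the ligands, 3 had at least 20 UMIs in neutrophils, with a median ratio of 0.81, and Il1a was past 2-fold with 15 and 37 UMIs. Il1b was 7535 CPM and 9374 CPM (0.32). Within clusters its ratio was between −1.39 and 0.12, so the pooled value was above that of every cluster. Tnf was 14.0 CPM and 24.6 CPM (0.81, 0.65 to 0.97), and in cluster 6 it was 20.3 CPM and 93.7 CPM (2.21). In the other 7 clusters the Tnf ratio ran from −0.89 to 0.67, and the interval excluded 0 only in cluster 1. Csf3r, the receptor of the granulocyte growth factor, had a pooled ratio of 0.00. Within clusters its ratio was negative in all but cluster 6 (0.01, −0.07 to 0.08). It was −0.31 (−0.37 to −0.26) in cluster 1 and lowest in cluster 31, at −0.57 (−1.14 to −0.01). The pooled Csf3r value thus also held the different cluster shares of the libraries. None of the 7 other chemoattractant receptors and none of the 7 receptor signalling genes was past 2-fold in neutrophils. Among all genes with at least 20 UMIs, 4.08% were higher and 3.27% lower by that much. Counts of 0 of 7 are close to these shares and are no result about the genes. Of 10 genes that respond to tissue dissociation, such as Fos and Dusp1, none was past 2-fold, which is likewise close to these shares, and their median was 0.26.

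In monocytes, 7 of 36 list genes were past 2-fold higher and 1 lower, with a list median of 0.18 and a median over genes with 20 UMIs of −0.03. With at least 200 UMIs, 4 of 29 were higher and none lower, against 1.67% and 0.377% of genes. At a fold of 1.5, 12 of 36 were higher and 2 lower, against 8.04% and 5.35%. The formyl peptide receptors, which sense bacterial and mitochondrial peptides, were among the 4. Fpr2 was 27.4 CPM in saline and 112 CPM in NP (2.02, 1.86 to 2.19), and Fpr1 was 3.95 CPM and 14.4 CPM (1.87, 1.43 to 2.33). They were 2 of 7 other chemoattractant receptors, of which 3 were higher at all. Past 2-fold, 2 were higher and 1 lower, against 3.99% and 1.56% of genes, and the median was −0.39. In classical monocytes alone 1 of the 7 was past 2-fold higher and 1 lower, against 3.31% and 1.54% of genes. The pooled ratios also held different class shares, with 95 saline and 367 NP non-classical cells beside 713 and 1177 classical cells. Nfkbia had 172 CPM and 409 CPM (1.25), and Tnfaip3 had 35.2 CPM and 79.3 CPM (1.17). Il1b was at 0.23, Tnf at 0.66 (0.23 to 1.10) and Csf3r at −0.10. The dissociation genes had a median of 0.07, and none of the 10 was past 2-fold, when 3.99% of genes were higher and 1.56% lower by that much. In classical monocytes alone none was past 2-fold either, with a median of 0.09. In non-classical monocytes alone, 2 of 10 were past 2-fold higher and none lower, against 3.75% and 3.18% of genes, with a median of 0.34. Their part in the Cxcl2 ratio of that class was not tested.

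The genes most like each member were those with the highest Pearson r of log2(CPM + 1) over 34 points, the 17 classes in each of the 2 libraries. These points share libraries and, within a library, depth, so r is a description. Cxcr2 was closest to Ifitm1 (0.94), Wfdc21 (0.84) and Stfa2l1 (0.83). Cxcl12 was closest to Gja4 (0.92), Sox17 (0.92) and Tril (0.92), of which Gja4 and Sox17 are known arterial endothelial genes. Cxcl2 was closest to Il1r2 (0.80), Cd14 (0.79) and Rasgrp4 (0.77), and Cxcr4 to Hnrnpc (0.83), Grk6 (0.82) and Ccm2 (0.81). Cxcl1 (Stbd1, Mt2 and Tmem53, 0.77 to 0.79) and Cxcl3 (Adora3, Gm26748 and Ush1c, 0.67 to 0.73) had looser matches.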

How the data were processed

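Lungs were dissociated, red cells were lysed and 10x Genomics libraries were sequenced, 1 per group. The deposited values are UMI counts per gene and barcode, without normalization or cell selection. According to the submitters' processing notes the authors used bcl2fastq, Cell Ranger 6.0 and mm10, while the file headers name version 4. Each library pooled 4 mice by the labels, and the study's methods give another number.

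Each cell was scaled to 10000 counts before taking logs. Leiden clusters (resolution 1, 20 neighbors, 30 principal components of 2000 variable genes, the 7 genes left out) were made on both libraries without integration. Classes came from marker lists. A cluster was left unnamed if other markers outnumbered its own among its 10 leading genes, if under 3 markers were raised, or, a rule chosen after seeing the data, if at least 10% of the UMIs of a cluster not named neutrophils were neutrophil markers. Names were rebuilt from the counts, which may itself give differences from the study. Doublets were kept.

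Ratios are of pooled CPM with exact conditional binomial intervals, and shares have Clopper-Pearson intervals. A count under 3 was set to 3, except where a ratio is given by its counts. Named list genes were past 2-fold in neutrophils or monocytes with at least 200 UMIs, with Il1b, Tnf, Csf3r and 1 gene that is not reported here added. Other genes were named after their values were seen. The members and lists were chosen with earlier results of these data known. The ratio calculation was also run on simulated neutrophil counts, drawn independently per gene as the intervals assume. That run cannot show how the intervals hold with unequal cells or in small classes. Alternatives were other cell filters, clustering settings, marker scoring per cell, scaling, thinning, subtraction of free RNA and removal of single cells; subtraction of neutrophil RNA, removal of a cluster or of sub-clusters, naming of mixed clusters and fixed cluster shares were chosen after seeing the data. The search motif was chosen after the promoter sequences were seen. Tools were leidenalg 0.10.2 with igraph 0.11.9, scipy 1.17.1 and numpy 2.4.6 under Python 3.11.15; figures were drawn with matplotlib 3.10.9, and components came from scikit-learn 1.9.0.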

Additional observations from a re-analysis of the deposited data

Results flagged for a closer look

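The Cxcl2 log2 ratio of NP over saline had opposite signs in different classes of cells, with pooled levels per class and 1 library per group. It was 4.00 in basophils, 2.64 in fibroblasts, 2.64 in type 2 epithelium, 2.57 in classical monocytes and 2.43 in non-classical monocytes, and −2.32 in plasmacytoid dendritic cells. The difference between classes was not tested. In plasmacytoid dendritic cells 17 saline UMIs stood against 7 in NP, and 1 cell held 76.5% of the 17. Basophils had 7 UMIs in saline, and in NP basophils 1 cell held 69.4% of 173 UMIs. In fibroblasts 1 cell held 73.7% of 38 saline UMIs and 1 held 32.9% of 371 NP UMIs. In type 2 epithelium 1 cell held 76.9% of 26 saline UMIs and 1 held 52.3% of 214 NP UMIs. The median mitochondrial percent of type 2 cells was 0.528 in saline and 4.96 in NP, whose part in the ratio was not tested.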

How the results depend on the processing

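No paired analysis was possible because each group was 1 library. Doublets were not removed: the doublet caller marked 1 of 8662 saline cells (0.0115%) and 307 of 8333 NP cells (3.68%), so the planned removal was not run. No ratio past 2-fold changed sign in the 261 values that could be recomputed. Settings that left neither library with more than 3 UMIs gave no value, as for Cxcl1 in mesothelium without its top cells. Ratios that rested on 1 cell could therefore not show a reversal there. Where a value below is given, the cause was not tested unless the setting's construction shows it. Depth limits Cxcl1, Cxcl3 and Cxcl5 in small classes to small UMI counts. The Cxcl2 ratio in neutrophils (0.98) was 0.88 with classes from marker scores per cell, 1.08 with equal weight per cell, 1.11 centred on the median gene, 1.08 thinned and 0.80 without the interferon cluster. In classical monocytes (2.57) it was 1.76 and 2.04 with minimums of 200 and 800 detected genes, 2.46 with a mitochondrial limit of 10%, 2.05 at resolution 0.5, 2.74 with 4000 variable genes, 2.01 by marker scores, 2.24 thinned, 3.09 with neutrophil RNA subtracted and 2.07 with mixed clusters named. Over all cells (0.37) it was 0.44 with a limit of 5%, 0.40 with equal weight, −0.0035 centred and 0.41 thinned. The neutrophil share of Cxcl2 was 92.6% in saline and 76.4% in NP with a limit of 5%, 93.3% and 76.5% at resolution 0.5, 92.4% and 76.2% with 4000 variable genes, 66.9% and 48.6% by marker scores, and 93.3% and 77.0% without the top cell; it was 75.0% in NP with a minimum of 200 genes. The Cxcr2 ratio in neutrophils (0.10) was 0.14 with equal weight, 0.23 centred, 0.13 thinned and −0.034 without the interferon cluster. That of Cxcr4 (0.01) was −0.071 by marker scores, −0.074 with equal weight, 0.14 centred and −0.33 without the interferon cluster, and its levels within clusters (−0.40) gave −0.28 with a minimum of 200 genes, −0.11 and −0.21 with limits of 5% and 10%, −0.31 at resolution 0.5 and −0.13 with 4000 variable genes. The Cxcl12 ratio in capillary endothelium (0.97) was 1.41 with a limit of 5%, 1.24 by marker scores, 0.73 with equal weight, 0.68 thinned, 1.26 with mixed clusters named and 0.78 without the sub-clusters led by neutrophil or fibroblast genes, and over all cells (2.59) it was 2.86 with a limit of 5%, 2.38 with equal weight, 2.22 centred and 2.37 thinned. The list counts with a minimum of 200 UMIs were 3 higher in neutrophils, and 4 higher and 0 lower in monocytes; with 1.5-fold they were 12 higher and 2 lower in monocytes.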
